A study of Mus musculus with 2 samples.

Results

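The MAP kinase cascade genes are the 43 protein-coding mouse genes, of 21627 examined, whose symbol is Mapk, Map2k, Map3k or Map4k followed by a number. They were picked by a rule on the symbol, and that rule was chosen with earlier results of these data known. A peak was counted for a gene when it touched the gene interval or lay within 10 kb of it on mm10. Accessible chromatin was mapped with ATAC-seq, an assay that uses Tn5 transposase to cut and tag open DNA. The cells were mast cells grown from bone marrow. One library came from wild-type mice and the other from Dnmt3a-deleted littermates, which lack a de novo DNA methyltransferase. All mice were females of about 3 to 4 weeks, and both cultures received interleukin 3 for 4 weeks, with no further agent, and were over 95% positive for both surface Kit and FcεRIα. The labels do not describe the engineered Dnmt3a allele or say how many mice went into each culture. With 1 library per genotype no difference below has a replicate check, and none was tested. In such bulk libraries a site open in fewer cells and one less open in each cell cannot be told apart.

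The cascade is a relay of protein kinases. A MAP4K or a small GTPase activates a MAP3K, the MAP3K phosphorylates a MAP2K, and the MAP2K phosphorylates both a threonine and a tyrosine of a MAPK, which then acts on transcription factors and other kinases. Its main branches end in the ERK kinases, in the JNK kinases and in the p38 kinases. In mast cells these branches run downstream of the IgE receptor and of Kit, and they are known for their part in cytokine and eicosanoid production.

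There were 17170 wild-type and 19684 knockout peaks, with a median summit pileup of 9 overlapping reads in both. Total read numbers are not part of the lists, and the labels give a depth of 10M reads. Around Dnmt3a there were 7 wild-type and 6 knockout peaks, with 5 regions in common, so the peak lists do not check the deletion. Of 8 mast cell marker genes, 7 had a wild-type peak and 7 a knockout peak. The counts were 3 and 4 of 6 for neutrophil, 1 and 2 of 4 for macrophage, 1 and 2 of 3 for B cell, 2 and 2 of 3 for T cell, 1 and 1 of 3 for erythroid and 3 and 1 of 3 for basophil markers. Of all protein-coding genes, 52.3% had a wild-type peak and 55.5% a knockout peak. What other cells contributed to the results below was not tested.

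Most cascade genes had open chromatin in both cultures, and the regions found in only 1 culture were mostly knockout regions. Overlapping peaks of the lists were merged into 86 regions, of which 41 were shared, 35 were in the knockout list only and 10 in the wild-type list only. At least 1 peak was present for 32 of the 43 genes (74.4%) among wild-type peaks and for 36 (83.7%) among knockout peaks, against 52.3% and 55.5% of all protein-coding genes. The cascade genes were longer, with a median of 57.1 kb against 17.3 kb, and per megabase of gene and flank they held 22.5 regions against 18.1 for all genes. Their shared portion was 47.7% (95% exact binomial interval 36.8 to 58.7) against 56.7% of all regions near protein-coding genes. The knockout-only portion was 40.7% against 27.1%, and the wild-type-only portion 11.6% against 16.2%.

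Among the 45 unshared regions, 35 or 77.8% (interval 62.9 to 88.8) were knockout-only. Over all genes this share was 62.6%, which is just below the interval. The interval covers counting error only and treats the regions as independent, although several lie in the same gene. It does not allow for the genes having been chosen with earlier results of these data known. With as many knockout as wild-type peaks, keeping the strongest, the numbers became 27 and 12 (69.2%, against 50.9% over all genes). Under 5 of 8 other processing choices the share over all genes lay inside the interval of the cascade genes. By gene, 15 of 43 had more knockout-only than wild-type-only regions (34.9%, against 19.3% of all genes) and 2 had the opposite balance (4.65% against 10.6%). Among the 21 cascade genes with any unshared region the share with a knockout excess was 71.4% (interval 47.8 to 88.7), against 57.0% of all such genes, so that at this level the background lay within the interval.

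**Figure D1:**
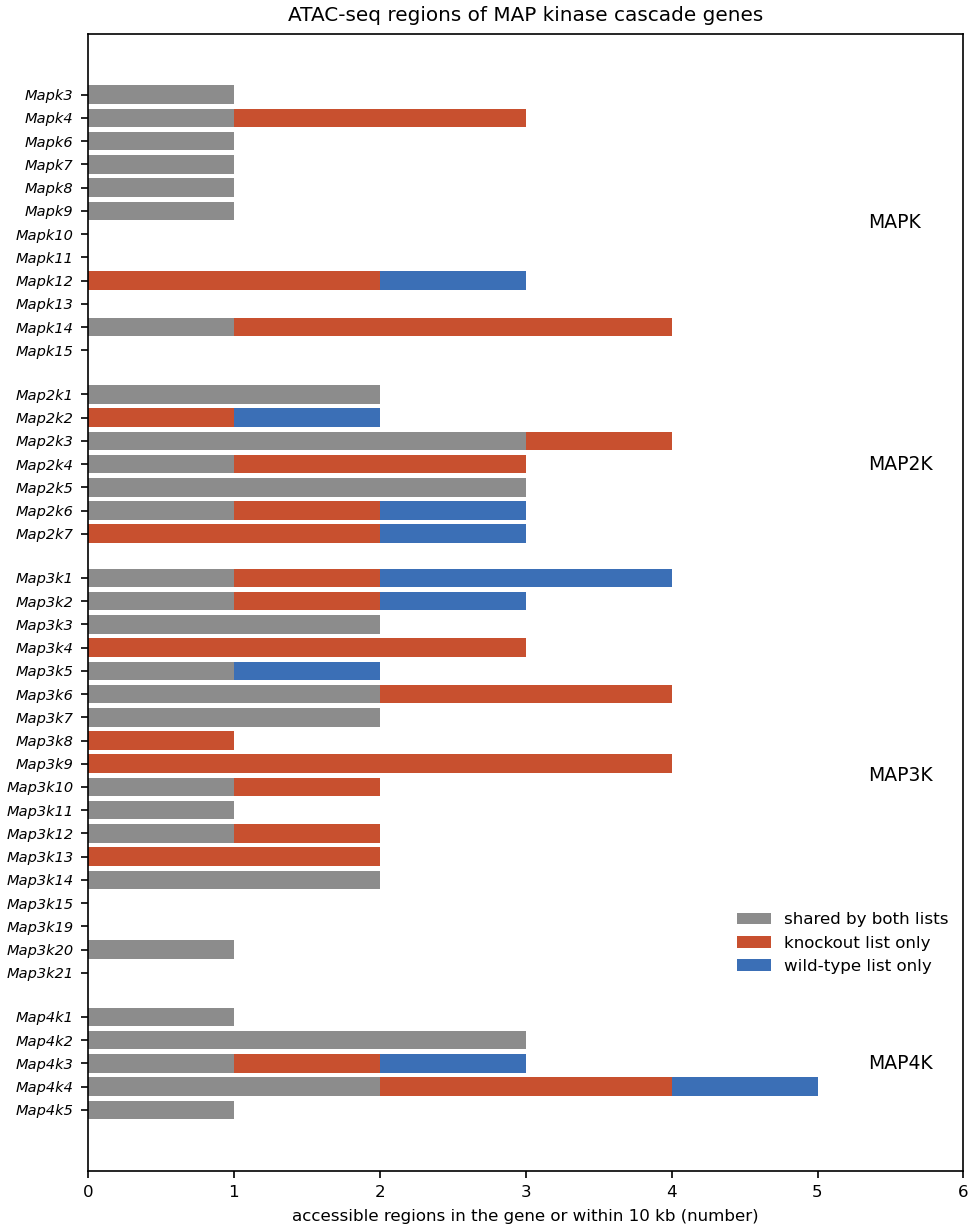
Number of accessible regions (x axis) in or within 10 kb of each cascade gene shown (y axis, ordered by kinase tier), coloured by the list that held them. Map3k9, Map3k4, Map3k13 and Map3k8 had knockout-only regions alone, Map3k1 had the most wild-type-only regions (2), and 7 genes had no region.

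**Figure D2:**
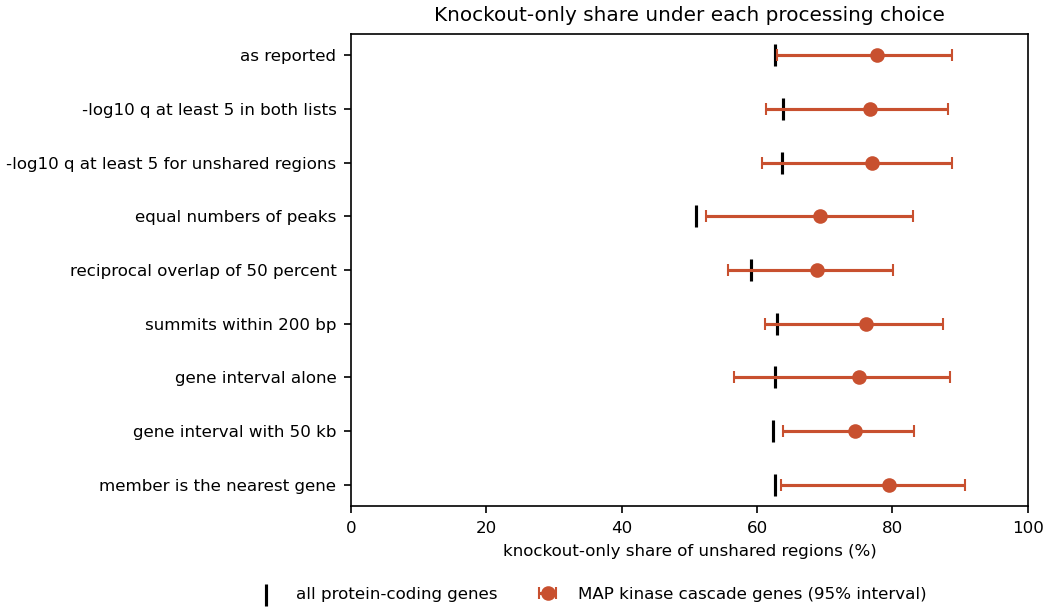
Share of unshared regions that were knockout-only (x axis, percent) for the cascade genes (points with exact 95% intervals) and for all protein-coding genes (black marks), as reported and under 8 other processing choices (y axis). The points lay between 68.9% and 79.5%, to the right of the mark in each of the 9 rows, while the lower end of the interval fell below the mark in 5 of them.

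Peak strength is given by the −log10 of the authors' q-value, which ranks peaks within their own list, and by the summit pileup, the number of reads stacked at the highest point. Shared regions of the cascade genes had a median pileup of 10 (4 to 28) in wild type and 12 (5 to 38) in knockout. Knockout-only regions had a median pileup of 7 (4 to 17) and wild-type-only regions one of 9 (5 to 13). The median of the knockout-only regions was thus below the 9 of the whole list and that of the wild-type-only regions equal to it. A region missing from a list is one where no peak was called, not one shown to be closed. A −log10 q of at least 10 was reached by 3 of the 35 knockout-only regions, at Map2k3, Mapk12 and Map2k7, against 11.1% of all knockout-only regions near genes. It was reached by 2 of the 10 wild-type-only regions, at Map4k3 and Map3k1, against 5.89%. In 24 of the 41 shared regions (58.5%) the knockout pileup was the higher, in 12 the wild-type pileup, and 5 were equal. Over all shared regions near genes the knockout pileup was the higher in 55.8%, so the cascade genes did not stand apart here.

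Regions at start sites were shared more often than regions elsewhere, among the cascade genes as among all genes. A transcription start was listed in RefSeq's GRCm38.p6 promoter table for 34 of the 43 genes. Within 1 kb of it the wild-type list held a peak for 19 genes (55.9%) and the knockout list for 24 (70.6%), against 34.8% and 37.2% of all genes with a listed start. The start had a peak in the knockout list alone for 5 genes (14.7%, interval 4.95 to 31.1, against 5.78% of all genes), namely Mapk14, Map2k2, Map3k4, Map3k6 and Map3k9. It had one in the wild-type list alone for 0 genes (interval 0 to 10.3, against 3.44%). For the 9 genes with no listed start either end of the gene was used, and there 3 had a peak in both lists and Map4k4 had one in the knockout list alone. The knockout-only peaks at the Map2k2 start (−log10 q 4.70) and at the Map4k4 end (4.42) were weak and did not reach a −log10 q of 5. Of the regions at these start sites or ends 66.7% were shared (22 of 33, interval 48.2 to 82.0), and of the regions elsewhere 35.8% (19 of 53, interval 23.1 to 50.2). Over all genes, counting each region once per gene, the shares were 68.3% and 52.3%. The cascade genes were thus near the background at start sites. Elsewhere their share was lower, and the upper end of the interval (50.2) lay just below the 52.3% over all genes. This interval, too, treats the regions as independent, although several lie in the same gene.

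**Figure D3:**
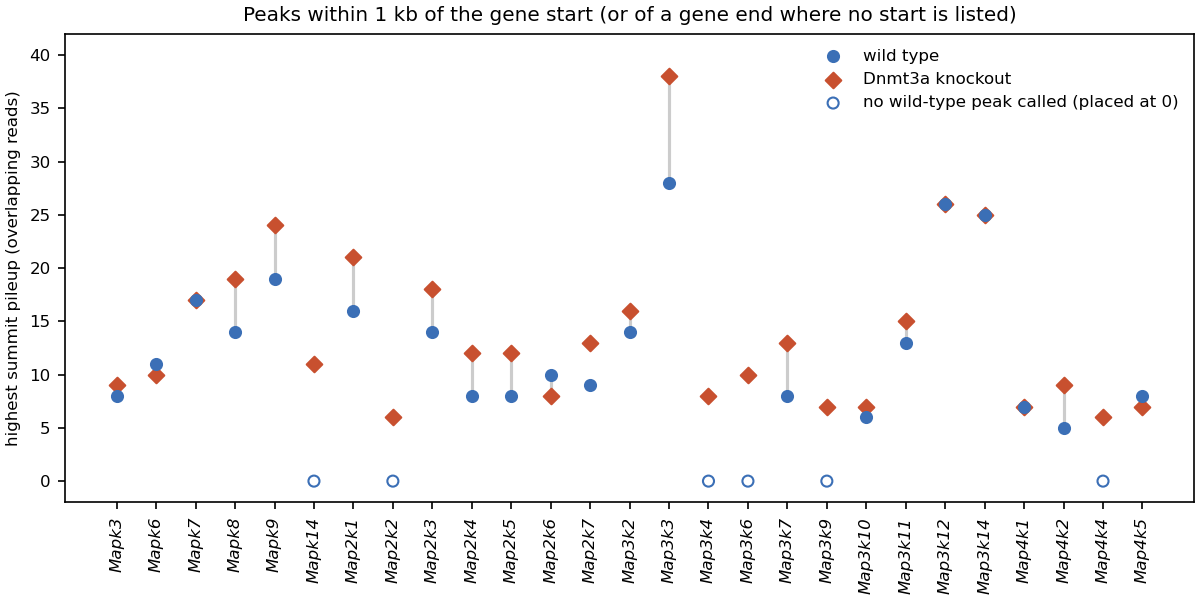
Highest summit pileup (y axis, overlapping reads) within 1 kb of the start of each gene shown (x axis), in the wild-type (circles) and knockout (diamonds) list; lines join the values of genes with a shared region there, and open circles at 0 mark genes with no wild-type peak called there, not a measured 0. Of the genes shown, 6 lacked a wild-type peak and none lacked a knockout peak; the Map2k7 peaks did not overlap, the Map3k10 knockout value is from a knockout-only region, and the Map3k12 values are from a region over Tarbp2.

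The sequences before the start are shown for 6 genes: the 3 whose knockout-only peak there had the highest −log10 q (Map2k7, Mapk14 and Map3k4) and the 3 whose shared peak had the highest in the knockout list (Map3k3, Map2k1 and Mapk9). Each is the 250 bases upstream of the start in RefSeq's table, build GRCm38.p6, 5′ to 3′ along the gene, with matches to any of 9 searched motifs in capitals.
Map2k7, chr8:4238490-4238739, plus strand: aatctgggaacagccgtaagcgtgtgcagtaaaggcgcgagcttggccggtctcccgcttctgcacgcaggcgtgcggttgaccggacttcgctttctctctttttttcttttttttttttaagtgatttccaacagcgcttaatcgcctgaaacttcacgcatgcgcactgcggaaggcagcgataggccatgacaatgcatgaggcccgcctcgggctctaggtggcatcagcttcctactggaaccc
Mapk14, chr17:28691092-28691341, plus strand: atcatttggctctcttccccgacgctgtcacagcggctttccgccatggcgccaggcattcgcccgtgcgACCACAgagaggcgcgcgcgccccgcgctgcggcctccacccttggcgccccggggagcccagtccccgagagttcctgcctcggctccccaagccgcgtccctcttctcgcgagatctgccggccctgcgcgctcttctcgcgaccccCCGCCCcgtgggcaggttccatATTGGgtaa
Map3k4, chr17:12318661-12318910, minus strand: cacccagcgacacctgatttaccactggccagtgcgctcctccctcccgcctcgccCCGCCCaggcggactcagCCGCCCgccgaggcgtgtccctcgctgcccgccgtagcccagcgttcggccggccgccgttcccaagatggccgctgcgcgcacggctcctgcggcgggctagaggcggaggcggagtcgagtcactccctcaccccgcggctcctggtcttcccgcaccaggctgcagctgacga
Map3k3, chr11:106084337-106084586, plus strand: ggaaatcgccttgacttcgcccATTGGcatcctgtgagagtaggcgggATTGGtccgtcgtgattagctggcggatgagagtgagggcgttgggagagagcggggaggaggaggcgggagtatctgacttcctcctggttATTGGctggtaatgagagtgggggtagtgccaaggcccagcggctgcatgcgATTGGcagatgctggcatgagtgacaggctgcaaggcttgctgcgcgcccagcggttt
Map2k1, chr9:64253606-64253855, minus strand: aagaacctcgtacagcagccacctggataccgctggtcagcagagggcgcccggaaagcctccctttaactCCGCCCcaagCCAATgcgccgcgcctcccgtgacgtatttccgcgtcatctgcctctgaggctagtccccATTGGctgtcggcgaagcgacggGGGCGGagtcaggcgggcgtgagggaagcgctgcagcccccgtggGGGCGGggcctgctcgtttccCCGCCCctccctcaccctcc
Mapk9, chr11:49846501-49846750, plus strand: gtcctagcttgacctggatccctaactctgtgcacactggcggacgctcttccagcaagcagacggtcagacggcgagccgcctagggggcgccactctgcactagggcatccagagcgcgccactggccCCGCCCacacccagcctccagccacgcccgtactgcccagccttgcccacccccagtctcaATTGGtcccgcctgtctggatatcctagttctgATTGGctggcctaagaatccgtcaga

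The motifs were searched on both strands: TGANTCA for the factor AP-1, TGACGTCA for the cyclic AMP response element CRE, AGATAA for the GATA factors and CCGGAAG for the ETS factors. The others were GGGCGG for Sp and KLF factors, CACGTG for the E-box, TGTGGT for RUNX, CCAAT for NF-Y, and the motif of NRF1. No 2 matches overlapped in these 6 sequences. The Map3k3 stretch held 4 matches to the NF-Y motif, starting 228, 202, 110 and 58 bases before the start. In Map2k1 there were 4 Sp/KLF and 2 NF-Y matches, and in Mapk9 1 and 2. Mapk14 had 1 match each for RUNX, Sp/KLF and NF-Y, Map3k4 had 2 for Sp/KLF, and Map2k7 had none of the 9 motifs. The Sp/KLF letters were found in 58.7% of the 46 listed upstream stretches of cascade genes and in 43.0% of 21044 stretches of all protein-coding genes, and the NF-Y letters in 26.1% and 35.6%. AP-1 letters stood in 6.52% against 6.17%, CRE in 2.17% against 1.94%, GATA in 4.35% against 8.84% and ETS in 6.52% against 9.07%. E-box letters stood in 6.52% against 6.70%, RUNX in 10.9% against 12.2% and NRF1 in 4.35% against 1.08%. A match is a run of letters, not a site shown to be bound. CpG pairs, the bases that DNA methyltransferases act on, numbered 19, 30 and 31 in the Map2k7, Mapk14 and Map3k4 stretches and 14, 24 and 14 in those of Map3k3, Map2k1 and Mapk9. The median was 16.5 over the 46 cascade stretches and 10 over all. For the 5 genes with a start peak in the knockout list alone it was 24 (10 to 31, 6 stretches), against 15 for all genes of that kind. Where both lists had a start peak the median was 16 for cascade genes (0 to 36, 28 stretches) and 17 for all genes. Over all genes the knockout-only starts thus had fewer CpG pairs than the starts with a peak in both lists. Starts with a peak in the wild-type list alone had a median of 14 over all genes. Methylation was not measured in these libraries.

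The terminal kinases, the MAPK tier, had 9 knockout-only, 1 wild-type-only and 8 shared regions over 13 genes. The knockout-only share of unshared regions was 90% (interval 55.5 to 99.7) for this tier and 70% (34.8 to 93.3) for the MAP2K tier. It was 80% (56.3 to 94.3) for the MAP3K tier and 60% (14.7 to 94.7) for the MAP4K tier. Each of these intervals held the 62.6% over all genes. Mapk14, which encodes p38 alpha, the main p38 kinase of immune cells, had 1 shared and 3 knockout-only regions. The knockout peak over its start (chromosome 17, 28691203 to 28691398) had a −log10 q of 9.85, a fold enrichment of 8.45 and a pileup of 11, and its nearest wild-type peak lay 45204 bp away. The other knockout-only regions of Mapk14 lay inside the gene (28706869 to 28706968, pileup 6) and 2356 bp past it (28750761 to 28750900, pileup 8). The shared region of Mapk14, far inside the gene at 28736596 to 28736857, had a pileup of 11 in wild type and 10 in knockout. At this gene the 2 lists thus had nearly the same pileup at the internal region, while a start peak was called in the knockout list alone. The start peak also overlapped the interval of the neighbouring gene Slc26a8.

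Mapk3, which encodes ERK1, had 1 shared region 35 bp from the gene, with pileups of 8 and 9 in the wild-type and knockout lists. Mapk8 and Mapk9, which encode JNK1 and JNK2, each had a single region, shared and at the start. The Mapk8 pileups were 14 in wild type and 19 in knockout. Those of Mapk9 were 19 and 24, and its −log10 q of 20.1 and 24.8 was the highest of the tier in both lists. Mapk7, which encodes ERK5, had 17 in both lists. Mapk6, which encodes the atypical kinase ERK3, had 11 and 10. The start peaks of Mapk6, Mapk7, Mapk8 and Mapk9 were therefore called in both cultures, and for Mapk3, with no listed start, so was a peak at an end of the gene.

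Mapk12, which encodes p38 gamma, had 3 regions, none of them shared. The knockout-only region inside Mapk12 (chromosome 15, 89131462 to 89131625) had a −log10 q of 15.7 and a pileup of 15, the second highest −log10 q among the unshared regions of cascade genes. The other knockout-only region of Mapk12 (pileup 6) overlapped the neighbour Tubgcp6 and the wild-type-only region (pileup 8) overlapped Hdac10. Mapk4, which encodes the atypical kinase ERK4, had 1 shared region inside the gene, with pileups of 7 and 6, and 2 knockout-only regions with pileups of 6 and 8. The first of these lay 72 bp from a wild-type peak. Mapk10, which encodes the JNK3 of neurons and heart, Mapk11, which encodes p38 beta, Mapk13, which encodes p38 delta, and Mapk15 had no peak in either list.

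The MAP2K tier, the kinases that phosphorylate the MAPKs, had 7 knockout-only, 3 wild-type-only and 10 shared regions over 7 genes, all of which had a peak in both lists. Map2k7 and Map2k4 encode the activators of JNK. At Map2k7 the knockout list had a peak over the start (chromosome 8, 4238697 to 4238860) with a −log10 q of 12.9 and a pileup of 13. The wild-type list had none there, but held a peak at 4239487 to 4239586 with a −log10 q of 8.39 and a pileup of 9, 627 bp farther into the gene. The lists thus placed their Map2k7 peaks side by side, and no region of the gene was shared. The second knockout-only region counted for Map2k7 overlapped the neighbour Snapc2. Map2k4 had a shared start peak with pileups of 8 in wild type and 12 in knockout, and 2 knockout-only regions with pileups of 6 and 7.

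Map2k3 and Map2k6 encode the activators of p38. The strongest unshared region of any cascade gene was a knockout-only region 4478 bp outside Map2k3 (chromosome 11, 60927408 to 60927576), with a −log10 q of 16.3, a fold enrichment of 11.4 and a pileup of 17. The nearest wild-type peak, 4277 bp away, was the shared Map2k3 start peak, with pileups of 14 in wild type and 18 in knockout. A second shared region, inside Map2k3 at 60935410 to 60935586, had pileups of 16 and 11, and another, 1102 bp past the gene, 4 and 7. So the lists differed at Map2k3 in 1 of 4 regions. Map2k6 had a shared start peak with pileups of 10 and 8, a knockout-only region (pileup 5) and a wild-type-only region (pileup 7), both inside the gene.

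Map2k1 and Map2k2 encode MEK1 and MEK2, the activators of the ERK kinases at the end of the classical branch. Map2k1 had a shared peak 8 bp before the gene, with a −log10 q of 18.5 in wild type and 24.8 in knockout and pileups of 16 and 21, the strongest region of the tier in both lists. A second shared region counted for Map2k1 overlapped the neighbour Snapc5. Map2k2 had a weak knockout-only peak over its start (chromosome 10, 81105991 to 81106193, −log10 q 4.70, pileup 6). The wild-type-only region counted for Map2k2 (pileup 13) lay 9681 bp from it and 737 bp from Zbtb7a. Map2k5, which encodes the activator of ERK5, had 3 regions, all shared. The one deep inside the gene (chromosome 9, 63275219 to 63275543) was the strongest, with pileups of 16 and 21. All 4 regions of the ERK5 branch, Map2k5 and Mapk7, were shared (interval 39.8 to 100). That interval held the 56.7% of all regions near protein-coding genes.

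**Figure D4:**
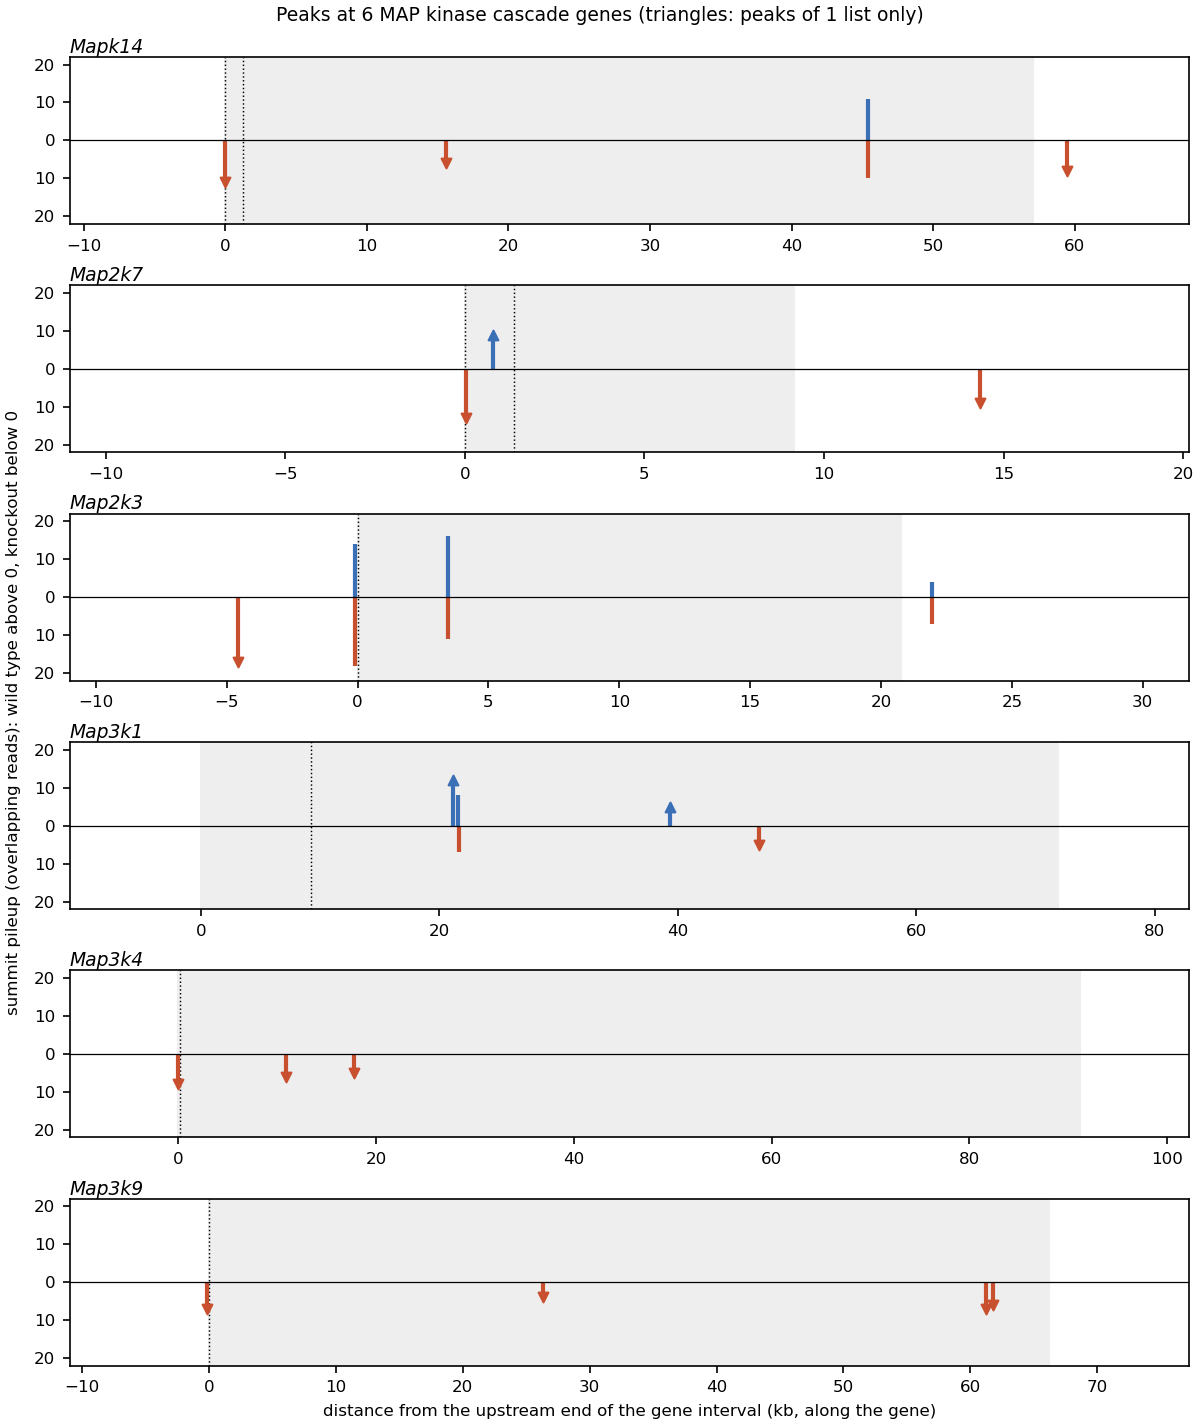
Peaks at 6 cascade genes by distance from the upstream end of the gene interval (x axis, kb along the gene), with the summit pileup (y axis, overlapping reads) of wild-type peaks drawn upward in blue and of knockout peaks downward in red. Grey marks the gene, dotted lines the listed starts and triangles peaks of 1 list only; Map3k4 and Map3k9 show knockout peaks alone (3 and 4), and the start of Mapk14 a knockout peak of 11 with no wild-type peak.

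The MAP3K tier, which receives signals from receptors and stress, had 16 knockout-only, 4 wild-type-only and 15 shared regions over 18 genes. Map3k9, which encodes the mixed lineage kinase MLK1, had 4 knockout-only regions and no other, the most of any cascade gene. At a −log10 q of at least 5 it kept 3 of them. With as many knockout as wild-type peaks it kept 2, fewer than the 3 of Map3k4. The Map3k9 region nearest the start lay 96 bp before the gene (chromosome 12, 81781266 to 81781368), with a −log10 q of 8.11 and a pileup of 7. The other Map3k9 regions lay inside the gene with pileups of 6, 7 and 4, and those of 6 and 7 (81719336 to 81719471 and 81719841 to 81719984) stood side by side. The nearest wild-type peak to any of them was 124101 bp away. Map3k4, which encodes MEKK4, had 3 knockout-only regions and no other. The Map3k4 peak at the start (chromosome 17, 12318737 to 12318864) had a −log10 q of 8.34 and a pileup of 8, and the other Map3k4 regions, inside the gene, had pileups of 5 and 6. Map3k13, which encodes the leucine zipper-bearing kinase LZK, had 2 knockout-only regions (pileups 7 and 4) and no shared one. These 3 genes thus had peaks in the knockout list alone, all of them small. Map3k8, which encodes TPL2, the kinase that links Toll-like receptors to ERK, was the fourth such gene, with 1 knockout-only region (chromosome 18, 4351248 to 4351372, −log10 q 5.72, pileup 7).

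The other mixed lineage kinase genes had few regions. Over the 7 genes of this family, from Map3k9 to Map3k13 with Map3k20 and Map3k21, there were 8 knockout-only, 0 wild-type-only and 4 shared regions. The knockout-only share was 100% of 8 unshared regions (interval 63.1 to 100), against 62.6% over all genes. Map3k9 alone held 4 of the 8, so the regions are not independent as the interval assumes. Map3k10, which encodes MLK2, had a shared region (pileups 6 and 5) and a knockout-only one (pileup 7) 158 bp from the wild-type peak, both beside the start of Zfp607b. Map3k12, which encodes DLK, was counted with a strong shared region (pileup 26 in both lists) and a knockout-only region 143 bp from it (pileup 14), and both overlapped the neighbour Tarbp2. Map3k11, which encodes MLK3, had 1 shared region with pileups of 13 and 15, which also overlapped Pcnx3. Map3k20, which encodes the stress kinase ZAK, had 1 shared region, with 7 and 9. No peak was called at Map3k21.

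Map3k1, which encodes MEKK1, was 1 of the 2 genes with a wild-type excess, with 2 wild-type-only regions, 1 knockout-only and 1 shared, all inside the gene. The stronger wild-type-only region (chromosome 13, 111797092 to 111797232) had a −log10 q of 11.9 and a pileup of 12, and lay 385 bp from a knockout peak. The other wild-type-only region of Map3k1 and the knockout-only one had a pileup of 5 each. Map3k5, which encodes the oxidative stress kinase ASK1, was the second such gene. It had a shared region centred 4892 bp past its listed start (chromosome 10, 19939320 to 19939517, pileups 16 and 17) and a weak wild-type-only region inside it (pileup 5). Map3k6, which encodes ASK2, had 2 shared regions, with pileups of 9 and 11 at the first and 8 and 13 at the second, and between them 2 knockout-only regions with pileups of 9 and 10. The knockout-only regions of Map3k6 lay on either side of its listed start.

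Map3k3, which encodes MEKK3, had the strongest peak of all cascade genes in both lists, a shared region 25 bp before the gene (chromosome 11, 106084161 to 106084562). Its −log10 q was 27.4 in wild type and 38.8 in knockout, with pileups of 28 and 38. A second shared region inside Map3k3 had 11 and 7. Map3k2, which encodes MEKK2, had a shared region 492 bp from the gene with pileups of 14 and 16, a wild-type-only region 283 bp from a knockout peak (pileup 12) and a knockout-only region over the neighbour Ercc3 (pileup 7). Map3k7, which encodes TAK1, the kinase at the entry to the NF-kB, JNK and p38 pathways, had 2 shared regions, with pileups of 8 and 13 at the start and 5 in both lists inside the gene. Map3k14, which encodes the NF-kB-inducing kinase, also had 2 shared regions, with a pileup of 25 in both lists at the start and of 7 and 11 inside the gene. For TAK1 and the NF-kB-inducing kinase, then, the lists held the same regions, each shared. Map3k15 and Map3k19 had no peak.

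The MAP4K tier, the uppermost kinases of the relay, had 3 knockout-only, 2 wild-type-only and 8 shared regions over 5 genes. Map4k1, which encodes the blood cell kinase HPK1, a brake on antigen receptor signalling, had 1 shared region at its start with a pileup of 7 in both lists, which also overlapped Eif3k. Map4k2 had 3 shared regions. Its own start peak had pileups of 5 and 9, and the other Map4k2 regions overlapped the neighbours Men1 (15 and 12) and Sf1 (24 and 33). The Sf1 region had the highest knockout −log10 q of the tier, 30.8. Map4k3 had the strongest wild-type peak of the tier, a shared region 5956 bp outside the gene (chromosome 17, 80734762 to 80735077, −log10 q 25.7 and 21.2, pileups 25 and 22). It also had the wild-type-only region with the highest −log10 q of any cascade gene, 12.3, inside Map4k3 at 80621063 to 80621199. That region had a pileup of 9, and its nearest knockout peak was 108742 bp away. The highest pileup of a wild-type-only region, 13, was at the one counted for Map2k2. A knockout-only region lay 1135 bp outside Map4k3 (pileup 11). Map4k4 had the most regions of the 43 genes, with 2 shared, 2 knockout-only (pileup 6 each) and 1 wild-type-only (pileup 9). Its shared regions had pileups of 18 and 22 outside the gene and of 9 and 5 inside it. Map4k5 had 1 shared start region with 8 and 7, which also overlapped Atl1.

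By branch, the JNK kinases with Map2k4 and Map2k7 had 4 knockout-only, 1 wild-type-only and 3 shared regions over 5 genes. The p38 kinases with Map2k3 and Map2k6 had 7, 2 and 5 over 6 genes. The knockout-only share was 80% of 5 unshared regions (interval 28.4 to 99.5) for JNK and 77.8% of 9 (interval 40.0 to 97.2) for p38, and both intervals held the 62.6% over all genes.

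The 60 other pathway genes, listed by role, had 25 knockout-only, 19 wild-type-only and 87 shared regions. Their knockout-only share was 56.8% of 44 unshared regions, against 62.6% over all genes. No interval was computed for these genes, and the single lists held only 4 to 12 unshared regions each. Whether they differ from the background or from the cascade genes was therefore not tested. Kinases activated by MAPKs had 9 knockout-only regions and 2 wild-type-only over 11 genes. Among them Mknk1, which encodes a kinase of the translation factor eIF4E, had 3 and 0, Mapkapk3, a p38 substrate, 3 and 1, and Rps6ka5, which encodes the histone kinase MSK1, 2 and 1. RAS and RAF genes with their regulators had 6 and 2 over 14 genes, with 2 and 1 for the adaptor Grb2 and 1 and 0 each for Nf1 and Sos1. STE20 kinases outside the MAP4K names had the opposite balance, 2 knockout-only and 7 wild-type-only regions over 9 genes, with 0 and 2 for Tnik and 0 and 1 each for Mink1 and Pak2. Scaffolds and adaptors had 6 and 6 over 16 genes, with 1 and 3 for the RAF scaffold Ksr1, 2 and 0 for Gadd45g and 2 and 1 for Arrb1. Transcription factor targets had 2 and 2 over 10 genes, with 1 and 0 for Elk3, 0 and 1 for Elk4 and 0 and 0 for Mef2d.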

How the data were processed

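ATAC-seq peak lists of 1 wild-type and 1 Dnmt3a knockout culture were used. The submitters' processing notes name Trimmomatic, Bowtie2 and MACS2, with mm10 and GRCm38. Their versions, their settings and whether read ends were shifted for Tn5 were not given in the sources used here. Shifting would move peak edges by a few bases. Per the labels, libraries were read as single reads of 50 bp. The authors deposited, per peak and separately for each library, a score (10 times the −log10 q), a fold enrichment ratio, and −log10 p and q values. These are the authors' values. The summit pileup was recovered from the fold (pseudocount 1) and a Poisson p for 100% of peaks (tolerance 0.001 in −log10 p).

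Genes, on chromosomes 1 to 19 and X, and promoter sequences came from RefSeq tables of GRCm38.p6, which has the coordinates of mm10. Exons and introns are not resolved. Peaks were merged at 1 bp of overlap and assigned to every gene whose interval widened by 10 kb they touched. Shares have exact (Clopper-Pearson) 95% intervals. Python 3.11.15, pandas 2.3.3, NumPy 2.4.6 and SciPy 1.17.1 were used, and the code was tested on simulated peaks. Every gene was accounted for by counts, and the values of 1 gene are not reported here. Peak values were given for core members, for members with at least 2 unshared regions or a difference of 2, for the strongest peak per tier, and for unshared regions with −log10 q of at least 10; up to 3 other pathway genes per list were named by largest difference, then by number of regions. The remaining members' values complete the account. The members and lists were chosen with earlier results of these data known.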

Additional observations from a re-analysis of the deposited data

How the results depend on the processing

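No paired analysis was possible because there was 1 library per genotype, so none could be left out either. Results were recomputed for peaks (or unshared regions alone) reaching −log10 q 5, for equally long lists, for peaks matched by 50% reciprocal overlap or by summits 200 bp apart at most, for no flank or one of 50 kb, and for each region's nearest gene. The knockout-only share of unshared regions ranged from 68.9% to 79.5% and stayed within its interval in all 8. With 50 kb of flank the counts grew with the window, to 64 knockout-only, 22 wild-type-only and 96 shared regions. With the reciprocal overlap, which splits partly overlapping peaks, there were 19 wild-type-only regions and 36.5% of regions were shared. The share of regions at starts or ends was 41.9% within 2.5 kb, against 38.4% within 1 kb. No gene with an excess of unshared regions from 1 list turned to an excess from the other, but Map3k1 lost its wild-type excess at −log10 q 5, Map3k5 lost its own with 50 kb of flank, and the knockout excess of 6 genes was lost under at least 1 alternative (Mapk4 and Map3k10 with equally long lists, Map4k4 at −log10 q 5, and Map2k3, Map2k7 and Map3k12 without the flank). Read totals were not used here, so what depth contributed to the unshared regions was not tested. Their median pileups were 7 (knockout-only) and 9 (wild-type-only).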

Other observations

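Some regions counted for a cascade gene belong as much to a neighbour. Of the 86 regions, 61 overlapped the cascade gene and 25 lay in its flanks. Another protein-coding gene was nearer for 11, of which 4 were knockout-only, 2 wild-type-only and 5 shared. The 75 regions with the cascade gene nearest comprised 31 knockout-only, 8 wild-type-only and 36 shared regions. Within 1 kb of the listed start of another gene lay 17 of the 86. Of the unshared regions 7 lay within 1 kb of a peak of the other list, 4 of them knockout-only and 3 wild-type-only. The summits of the 41 shared regions lay a median of 27 bp apart between the lists.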
